A study of Mus musculus with 4 samples.

Results

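The RNA of 8 genes tied to the uptake of dying cells and modified lipoproteins was followed in mouse brown adipose tissue (BAT). They are Mertk, Axl, Timd4, Stab1, Msr1, Gas6, Pros1 and Mfge8. The cells were those left once adipocytes are removed, the stromal vascular fraction (SVF), and uptake itself was not measured. The genes were chosen by symbol, and all 8 were found among the 32285 genes of the count matrices. They are often listed together as efferocytosis and scavenger receptors, but 5 of them encode receptors and the other 3, Gas6, Pros1 and Mfge8, encode secreted bridging proteins. Efferocytosis is the engulfment of apoptotic cells. Dying cells expose phosphatidylserine, a lipid that living cells keep on the inner side of their membrane, and phagocytes bind it either directly through receptors or through soluble bridging proteins that hold the dying cell and the receptor together. Tissue macrophages carry most of these receptors, and in adipose tissue they also take up lipid released by adipocytes.

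The study made 1 droplet library per group, and in its account each holds the pooled SVF of 3 male mice. The WT group comprised C57BL6/J mice of 10 weeks on normal diet. The db/db mice, B6.BKS(D)-Leprdb/J by the study's methods, carry a mutation of the leptin receptor in every cell and become obese and diabetic. They were 8 or 16 weeks old (8-week db/db and 16-week db/db, marked 8w and 16w in the plots), and their strain is also labelled C57BL6/J. The HFD group received a high-fat diet and is labelled 10 weeks old, although by the study's methods the diet began at 10 weeks of age and lasted 10 weeks, so its age is not settled. All mice were fasted before tissue was taken, and the SVF was sorted before capture with no gate stated. Genotype, diet, age and library cannot be told apart, and with 1 library per group no difference could be tested. All intervals are exact 95% intervals that cover counting error only.

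After filters on genes, unique molecular identifiers (UMIs) and mitochondrial share, 28887 cells remained, 5944 in WT, 11648 in 8-week db/db, 5833 in 16-week db/db and 5462 in HFD, with median depths of 2733 to 6218.5 UMIs per cell. The filters kept between 31.3% of barcodes in HFD and 89.5% in 16-week db/db, and any pair of libraries shared 16 to 97 cell barcodes. The 16-week db/db library stood apart in its sex-linked transcripts, with Xist at 207 CPM (UMIs of a gene per 1000000 UMIs) against at most 0.688 CPM elsewhere. Y-linked genes (Ddx3y, Eif2s3y, Kdm5d and Uty, summed) were at 17.7 CPM in it against 164 to 188 CPM in the other libraries. It thus does not match a pool of male mice alone, so in its differences from the other libraries sex cannot be told apart either. Its values are given beside those of the others throughout. Cells were assigned to lineages by the number of distinct marker genes with a UMI, and none of the 8 genes served as a marker. Macrophages required 3 of 6 markers (Adgre1, Csf1r, Fcgr1, Cd68, C1qa and C1qb) and numbered 979, 2670, 2104 and 1255 in WT, 8-week db/db, 16-week db/db and HFD. Markers not used for gating fitted the name, since the macrophage-gated cells held Lyz2, a lysozyme gene of myeloid cells, at 5713, 6458, 5348 and 6871 CPM, and the leukocyte gene Ptprc at 330.3, 370.4, 125 and 503 CPM. They also held Dcn, a stromal proteoglycan gene, at 259, 92.1, 3.03 and 81.5 CPM, which was 2.10%, 1.002%, 0.0412% and 0.808% of its level in stromal cells of the same library.

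The genes lie on 6 chromosomes of GRCm38 (mm10), and the annotation calls all 8 protein-coding. Mertk (ENSMUSG00000014361) spans chromosome 2, 128698956 to 128802894, Axl (ENSMUSG00000002602) chromosome 7, 25757273 to 25788705, and Timd4 (ENSMUSG00000055546) chromosome 11, 46810800 to 46844332. Stab1 (ENSMUSG00000042286) spans chromosome 14, 31139013 to 31168641, and Msr1 (ENSMUSG00000025044) chromosome 8, 39581685 to 39642673. Of the bridging proteins, Gas6 (ENSMUSG00000031451) lies at chromosome 8, 13465374 to 13494490, Pros1 (ENSMUSG00000022912) at chromosome 16, 62854307 to 62929346, and Mfge8 (ENSMUSG00000030605) at chromosome 7, 79133768 to 79149060. Timd4 had the lowest ratio to WT of all members in macrophages of each obese library and Mfge8 the highest, and the 250 bases before their RefSeq start (GRCm38.p6, 5′ to 3′ on the strand of the gene, chr11:46810549-46810798 on the plus strand and chr7:79149061-79149310 on the minus strand) are therefore shown, with motif matches in capitals.
Timd4: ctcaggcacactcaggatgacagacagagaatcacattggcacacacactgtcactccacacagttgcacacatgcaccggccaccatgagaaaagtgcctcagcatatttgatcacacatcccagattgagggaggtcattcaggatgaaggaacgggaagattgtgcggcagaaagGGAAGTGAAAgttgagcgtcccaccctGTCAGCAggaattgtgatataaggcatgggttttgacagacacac
Mfge8: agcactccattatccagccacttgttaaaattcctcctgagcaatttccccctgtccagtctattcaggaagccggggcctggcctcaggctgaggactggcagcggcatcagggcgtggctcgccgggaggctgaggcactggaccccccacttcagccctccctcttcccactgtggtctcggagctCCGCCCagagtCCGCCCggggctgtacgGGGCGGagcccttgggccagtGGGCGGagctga

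The motifs were searched on both strands, and the matches in these windows of Timd4 and Mfge8 did not overlap each other. The Timd4 window held GGAA and GAAA with any 2 bases between them, the composite element of PU.1 and IRF factors, at 72 to 63 bases before the start, and TGCTGAC, a MAF half-site, on the opposite strand at 45 to 39 bases before it. It was the sole member window with either of them, out of 7 (Msr1 had no entry), while 2.38% and 3.72% of 27025 promoters of the same length held them. The Mfge8 window held 4 GC boxes (GGGCGG, 2 on each strand), letters that 32.9% of all promoters and 5 of the 7 member windows held, and its GC content was 65.2% against 50.0% for Timd4. The E-box CACGTG, found in 6.05% of promoters, was in no member window. Such matches are descriptions of the letters and not evidence of binding.

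Over all kept cells of a library, the receptor levels moved in different directions. Timd4 was at 10.2, 6.23, 0.565 and 1.56 CPM in WT, 8-week db/db, 16-week db/db and HFD, from 460, 333, 15 and 51 UMIs. Axl was at 409, 248, 63.1 and 123 CPM, highest in WT. Msr1 was at 18.4, 47.0, 66.0 and 32.8 CPM, lowest in WT. These whole-library values mix cell classes whose shares differed, as macrophages made up 16.5%, 22.9%, 36.1% and 23.0% of kept cells, and the levels within macrophages are therefore given next.

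Within macrophages, Timd4, Stab1 and Gas6 were lower than in WT in all 3 obese libraries and Mfge8 was higher in all 3, past 2-fold in each case on the scale used for calls (log2 ratio of CPM with 10 CPM added to both). In 8-week db/db 1 of the 8 members was higher by that measure, where 2.70% of the 7754 genes with at least 10 CPM in either library were, and 3 were lower, against 2.44% of genes. In 16-week db/db 1 member was higher (background 13.8%) and 5 were lower (16.0%), namely Mertk, Timd4, Stab1, Gas6 and Pros1. In HFD 2 were higher (6.79%), Axl and Mfge8, and 3 were lower (6.87%). The median log2 ratio of the members was -0.33 in 8-week db/db, -1.22 in 16-week db/db and -0.69 in HFD, beside 0.02, -0.09 and 0.12 over all genes tested. Thinning every cell to 1000 UMIs before gating left 1 member lower in 8-week db/db and 1 in 16-week db/db, Timd4 in both.

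**Figure D1:**
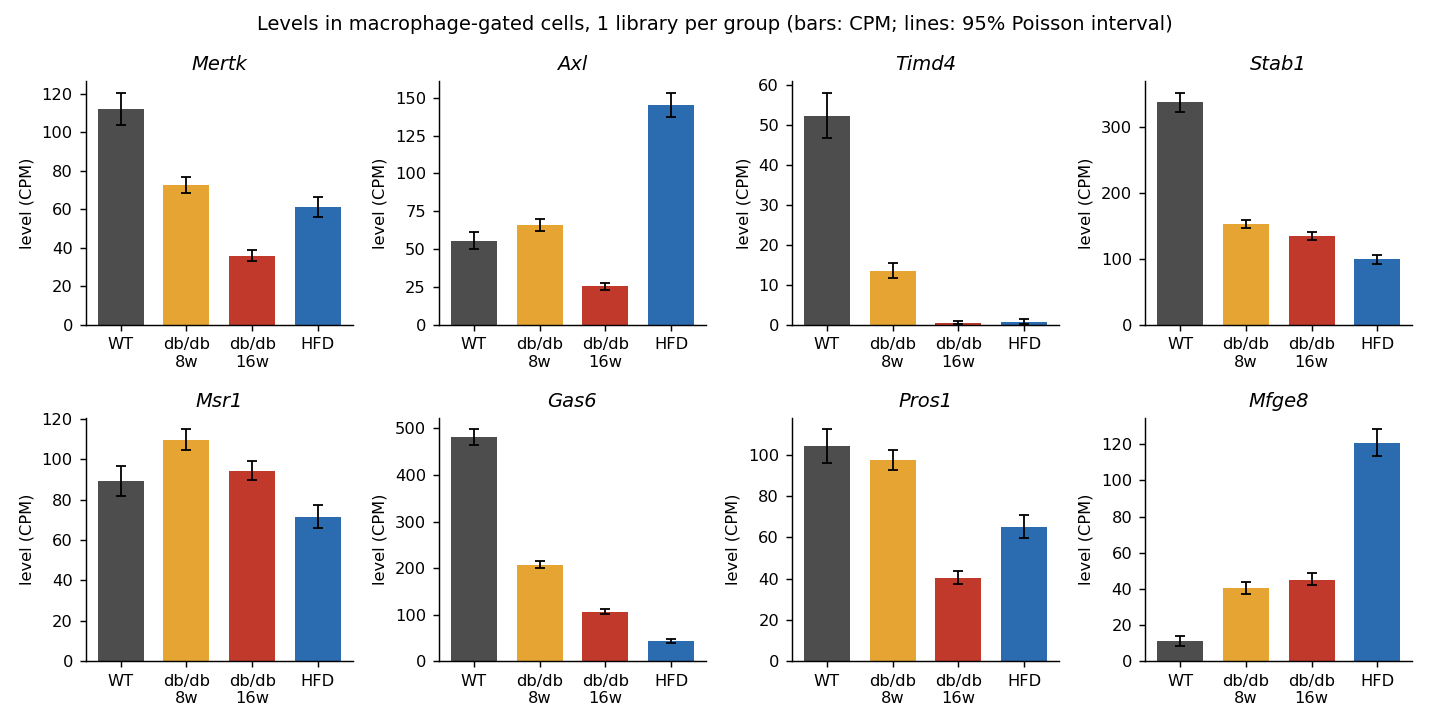
Level of each member in macrophage-gated cells of the 4 libraries, with bars from 0 on a linear axis in CPM and lines for exact 95% Poisson intervals. Timd4, Stab1 and Gas6 are highest in WT (52.2, 338 and 480.4 CPM), and Mfge8 is lowest in WT (11.1 CPM) and highest in HFD (121 CPM).

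Timd4 encodes Tim-4, a receptor of resident macrophages that binds phosphatidylserine directly. Its macrophage level was 52.2 CPM in WT (95% interval 46.7 to 58.2, 329 UMIs), 13.5 CPM in 8-week db/db (11.8 to 15.4, 223 UMIs), 0.495 CPM in 16-week db/db (0.214 to 0.975, 8 UMIs) and 0.586 CPM in HFD (0.190 to 1.37, 5 UMIs). No interval of an obese library reached that of WT, and those of 16-week db/db and HFD overlapped each other. The ratio to WT was 0.258 (0.217 to 0.307) in 8-week db/db, 0.00948 (0.00406 to 0.0189) in 16-week db/db and 0.0112 (0.00362 to 0.0265) in HFD, the lowest of any member in each library. Macrophages held 71.5% of the Timd4 UMIs of WT but only 9.80% of those of HFD. Cells outside every gate held 25.4% and 76.5%, in HFD at 2.48 CPM from 39 UMIs, above the macrophage level. Keeping every macrophage whatever its markers of other lineages gave a log2 ratio (10 CPM added) of -2.30 in HFD. A Timd4 UMI was held by 15.8% of macrophages in WT, 5.62% in 8-week db/db, 0.333% in 16-week db/db and 0.319% in HFD, and by 5.17%, 2.03%, 0.0485% and 0.0797% once each cell was thinned to 1000 UMIs. None of the 22, 87, 38 and 17 lymphoid cells, which should lack the gene, held a UMI, at median depths of 4945.5, 2830, 1722 and 2590 UMIs against 5379, 4919, 6153.5 and 5558 in macrophages.

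Stab1 encodes stabilin-1, a scavenger receptor that also binds phosphatidylserine. It stood at 338 CPM in WT macrophages (323 to 352, 2127 UMIs), 153 CPM in 8-week db/db (147 to 159), 134 CPM in 16-week db/db (129 to 140) and 99.3 CPM in HFD (92.7 to 106). All 3 obese libraries were below WT, at ratios of 0.454 (0.428 to 0.481), 0.398 (0.375 to 0.423) and 0.294 (0.271 to 0.319). The share of macrophages with a UMI went the same way, at 66.8%, 43.4%, 43.8% and 34.2% as measured and 31.1%, 16.0%, 15.4% and 10.0% after thinning.

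Mertk and Axl encode receptor tyrosine kinases of the TAM family, which signal when Gas6 or protein S links them to phosphatidylserine. Mertk, the receptor usually tied to efferocytosis in resting tissue, was at 112 CPM in WT macrophages (104 to 121, 706 UMIs), 72.4 CPM in 8-week db/db (68.3 to 76.6), 35.9 CPM in 16-week db/db (33.0 to 38.9) and 61.1 CPM in HFD (55.9 to 66.6). WT was highest and 16-week db/db lowest, and the ratios to WT were 0.646 (0.588 to 0.710), 0.320 (0.286 to 0.358) and 0.545 (0.486 to 0.611). Axl, a receptor known from inflamed tissue, was at 55.4 CPM in WT (49.7 to 61.5, 349 UMIs), 65.7 CPM in 8-week db/db (61.8 to 69.7), 25.3 CPM in 16-week db/db (22.9 to 27.9) and 145 CPM in HFD (137 to 153, 1237 UMIs). The obese libraries thus fell on both sides of WT for Axl, with ratios of 1.19 (1.05 to 1.34), 0.457 (0.395 to 0.528) and 2.62 (2.32 to 2.96). Axl was abundant in stromal cells, and the share of stromal Axl that Dcn gives in the macrophage-gated cells was 10.9 CPM in WT, 4.13 CPM in 8-week db/db, 0.100 CPM in 16-week db/db and 1.63 CPM in HFD, and its part in the Axl ratios was not tested. Tyro3, the remaining TAM receptor, was nearly undetected, at 0.159, 0.0604, 0.186 and 0.234 CPM.

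Msr1 encodes the class A macrophage scavenger receptor, which takes up modified lipoproteins. Its level was 89.0 CPM in WT (81.8 to 96.7, 561 UMIs), 109.5 CPM in 8-week db/db (105 to 115), 94.3 CPM in 16-week db/db (89.6 to 99.1) and 71.3 CPM in HFD (65.7 to 77.2). The ratios were 1.23 (1.12 to 1.35), 1.06 (0.961 to 1.17) and 0.801 (0.713 to 0.899), so the widest ratio of Msr1 lay nearer to 1 than that of any other member, and in 16-week db/db a difference was not detectable at this depth.

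The bridging genes diverged. Gas6, the ligand of Mertk and Axl, was at 480.4 CPM in WT macrophages (463 to 498, 3027 UMIs), 208 CPM in 8-week db/db (201 to 215), 106 CPM in 16-week db/db (101 to 112) and 44.3 CPM in HFD (39.96 to 49.0, 378 UMIs). Each obese library was below WT and no intervals overlapped, with ratios of 0.432 (0.411 to 0.454), 0.221 (0.209 to 0.235) and 0.0922 (0.0827 to 0.103). A Gas6 UMI was held by 77.2%, 47.9%, 33.5% and 19.3% of macrophages as measured and by 38.9%, 21.2%, 13.6% and 4.23% after thinning. Pros1, which encodes protein S, an anticoagulant that is also a TAM ligand, was at 104 CPM (96.2 to 112) in WT, 97.3 CPM (92.6 to 102) in 8-week db/db, 40.5 CPM (37.4 to 43.7) in 16-week db/db and 64.9 CPM (59.7 to 70.6) in HFD. WT and 8-week db/db did not differ beyond counting error for Pros1 (ratio 0.936, 0.854 to 1.03), whereas 16-week db/db and HFD were lower, at 0.389 (0.349 to 0.434) and 0.625 (0.557 to 0.701).

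Mfge8 encodes milk fat globule-EGF factor 8, also called lactadherin, which bridges phosphatidylserine to integrins. It was at 11.1 CPM in WT macrophages (8.66 to 14.0, 70 UMIs), 40.4 CPM in 8-week db/db (37.4 to 43.6, 670 UMIs), 45.2 CPM in 16-week db/db (42.0 to 48.6, 731 UMIs) and 121 CPM in HFD (113 to 128, 1029 UMIs). Mfge8 was therefore lowest in WT, with ratios of 3.64 (2.84 to 4.73), 4.07 (3.18 to 5.28) and 10.9 (8.52 to 14.0). The share of stromal Mfge8 that Dcn gives was 3.49, 1.84, 0.151 and 1.35 CPM in the same order. Keeping every macrophage whatever its markers of other lineages brought Mfge8 to a log2 ratio of 0.85 in 8-week db/db and 0.77 in 16-week db/db, under 2-fold, and Axl in HFD to 0.51.

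Macrophages were then split by subset markers. Perivascular macrophages (PVMs), which lie along vessels and take up circulating material, were gated on at least 2 of Lyve1, Folr2, Cd163 and Cbr2, and lipid-associated macrophages (LAMs), which gather in obese fat, on at least 2 of Trem2, Cd9, Gpnmb and Spp1. PVM-gated cells without the LAM gate numbered 788 in WT, 1194 in 8-week db/db, 255 in 16-week db/db and 62 in HFD, or 80.5%, 44.7%, 12.1% and 4.94% of macrophages. LAM-gated cells without the PVM gate numbered 14, 575, 1251 and 762, or 1.43%, 21.5%, 59.5% and 60.7%. A further 22, 310, 284 and 95 cells passed both gates and 155, 591, 314 and 336 passed neither. These gates are not the clusters of the study.

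Stab1 and Gas6 were lower in LAMs than in PVMs past 2-fold in every library, and no member was higher past 2-fold in every library. Of 7997 genes tested, 1.64% were lower and 1.03% higher in all 4 libraries. In the 3 obese libraries alone, which leave out the 14 LAMs of WT, the same 2 members were lower (2.23% of genes) and 0 were higher (1.34%). The members' median log2 ratio, taking each member's mean over the libraries, was -1.36 in all 4 libraries and -1.14 in the 3, beside -0.05 and -0.07 over all genes.

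Gas6 was at 577, 459, 735 and 226 CPM in PVMs of WT, 8-week db/db, 16-week db/db and HFD and at 62.7, 23.8, 37.2 and 29.2 CPM in LAMs. The ratio of LAMs to PVMs was 0.109, 0.0518, 0.0506 and 0.129, so the lowest PVM level lay above the highest LAM level. Stab1 was at 396, 283, 597 and 345 CPM in PVMs and at 87.8, 46.8, 73.9 and 76.5 CPM in LAMs, with ratios of 0.222, 0.165, 0.124 and 0.222. Mertk was at 127, 111, 97.2 and 115 CPM in PVMs and at 50.2, 44.8, 27.4 and 58.5 CPM in LAMs, with ratios between 0.282 and 0.509. Its levels also did not overlap between the subsets, though in HFD the ratio stayed short of 2-fold. Pros1 was at 120.5, 170.2, 144 and 119 CPM in PVMs and at 37.6, 44.8, 27.0 and 57.8 CPM in LAMs, again without overlap. LAMs were deeper than PVMs, with medians of 9968, 7977, 7758 and 6646.5 UMIs against 5338, 4236.5, 3038 and 3829. With cells thinned to 1000 UMIs before gating, the mean log2 ratio of Mertk over the 3 obese libraries was only -0.27 (10 CPM added). On that scale Msr1 was at 0.33, and Stab1, Gas6 and Pros1 stayed at -1.91, -2.26 and -1.65. The part of depth in these ratios was not tested.

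Timd4 was the member most nearly absent from LAMs. In PVMs it was at 63.5 CPM in WT (313 UMIs), 33.2 CPM in 8-week db/db (187 UMIs), 7.64 CPM in 16-week db/db (7 UMIs) and 3.71 CPM in HFD (1 UMI). In LAMs 0 UMIs were counted in WT, 16-week db/db and HFD, which allows up to 18.8, 0.263 and 0.49998 CPM by a limit of 3 counts, and 3 UMIs in 8-week db/db gave 0.580 CPM. Dendritic cells, gated on 3 of 6 markers, carried Timd4 at 97.4 CPM in WT, 85.0 CPM in 8-week db/db, 68.4 CPM in 16-week db/db and 51.7 CPM in HFD, from 6, 7, 1 and 7 UMIs in only 6, 14, 4 and 23 cells, so their intervals are wide.

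Axl and Mfge8 leaned the other way. Axl was at 42.4, 24.5, 2.18 and 85.2 CPM in PVMs and at 157, 93.1, 27.3 and 137 CPM in LAMs. The LAM level was above the PVM level in each library, with ratios of 3.70, 3.80, 12.5 (3.43 to 104, from 2 UMIs in the PVMs) and 1.61 (1.06 to 2.55). Macrophages that passed neither gate held Axl at 108, 111, 63.4 and 206 CPM. That was above the LAM level in each obese library, though with overlapping intervals in 8-week db/db, so a higher level than in PVMs was not particular to LAMs. Mfge8 was at 11.8, 13.9, 28.4 and 48.2 CPM in PVMs and at 25.1, 79.4, 54.6 and 155 CPM in LAMs, with ratios of 2.13 (0.562 to 5.76), 5.73 (4.49 to 7.40), 1.92 (1.30 to 2.97) and 3.21 (1.87 to 6.06). The WT value rests on 4 UMIs, and its interval includes 1. Without the LAMs of at least 5 Mfge8 UMIs, described below, Mfge8 in LAMs was at 25.8, 29.8 and 37.5 CPM in the obese libraries. PVMs held 0 such cells. The LAM level was then still above that of PVMs in 8-week db/db and close to it in 16-week db/db. In HFD it was lower, but the PVM level there rests on 13 UMIs, so the order is not settled. Msr1 differed least between the subsets, with 98.0, 123, 120.1 and 55.6 CPM in PVMs and 87.8, 96.2, 90.0 and 79.3 CPM in LAMs.

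**Figure D2:**
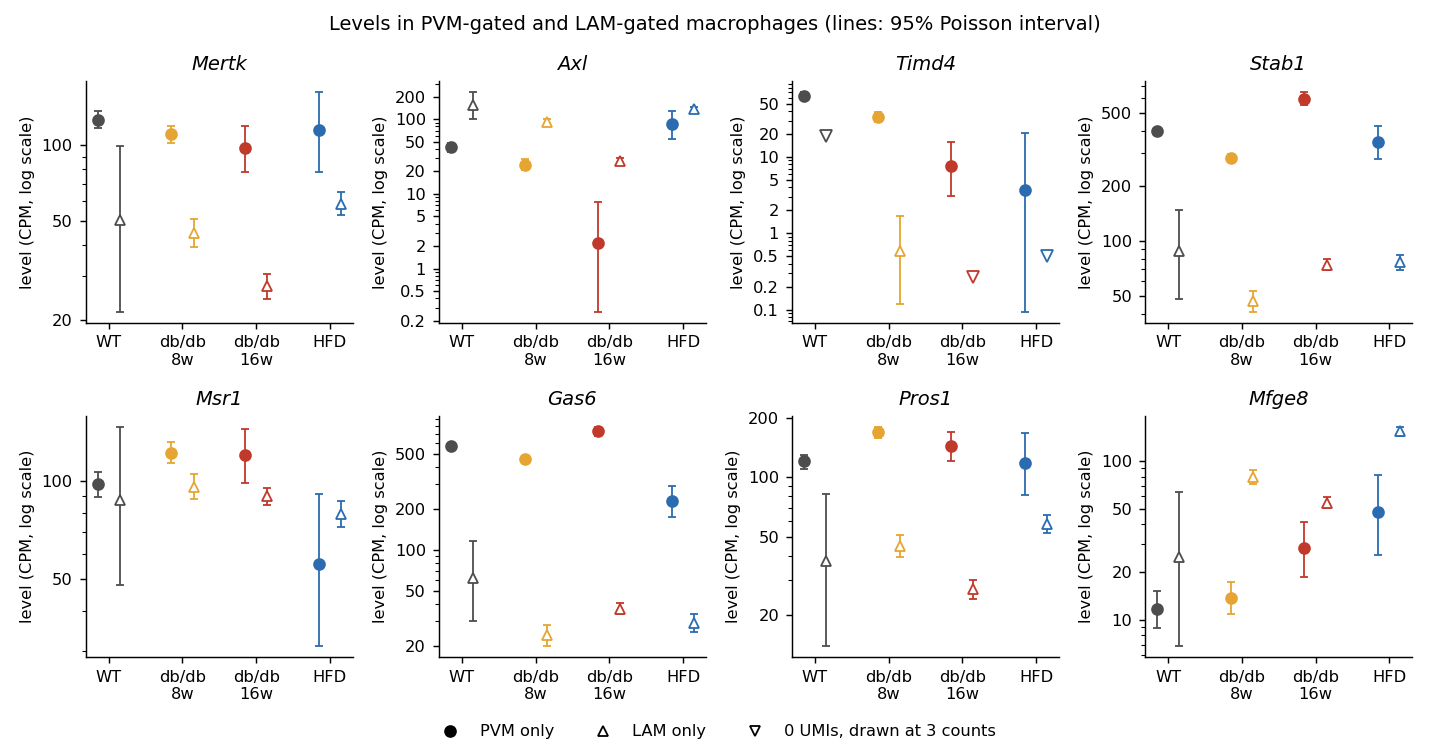
Level of each member in PVM-gated and LAM-gated macrophages of the 4 libraries, in CPM on a log axis, with filled circles for PVMs, open triangles for LAMs, lines for exact 95% Poisson intervals and inverted triangles at 3 counts where 0 UMIs were found. Gas6, Stab1, Mertk and Pros1 lie higher in PVMs in every library, Axl and Mfge8 higher in LAMs, and Timd4 has no UMI in LAMs of WT, 16-week db/db and HFD. The Mfge8 levels of obese LAMs include the few cells with at least 5 Mfge8 UMIs.

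At a fixed subset the differences from WT looked different from those over all macrophages. In PVMs Mertk was at 0.874, 0.768 and 0.908 (0.611 to 1.30) of WT in 8-week db/db, 16-week db/db and HFD, and Stab1 at 0.716 (0.670 to 0.765), 1.51 (1.37 to 1.66) and 0.871 (0.700 to 1.07). Gas6 in PVMs was at 0.795 (0.754 to 0.839), 1.27 (1.17 to 1.39) and 0.392 (0.299 to 0.505) of WT. Timd4 remained below WT within PVMs, at 0.523 (0.434 to 0.629), 0.120 (0.0480 to 0.251) and 0.0584 (0.00147 to 0.328), and Mfge8 was above it in 16-week db/db and HFD, at 2.41 (1.46 to 3.90) and 4.10 (2.06 to 7.56), but not detectably in 8-week db/db (1.18, 0.828 to 1.68). The HFD values rest on 62 PVMs. Axl in PVMs was at 0.578, 0.0515 (0.00620 to 0.188) and 2.01 (1.25 to 3.10) of WT.

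When each library's 4 subset levels were weighted to the subset mix of WT, a calculation chosen after these values had been seen, Mertk came to 97.8, 86.8 and 102 CPM, against 112 CPM in WT. Stab1 came to 239, 506 and 294 CPM against 338 CPM, and Gas6 to 374, 605 and 189 CPM against 480.4 CPM. Pros1 came to 146, 121 and 109 CPM against 104 CPM, and thus turned from below to above WT in all 3 libraries, with an interval that still reached the WT level in 16-week db/db (102 to 142) and HFD (78.8 to 147). Axl came to 40.6, 12.4 and 106 CPM against 55.4 CPM, so that 8-week db/db turned from above WT to 0.733 of it, 16-week db/db stood at 0.224 and HFD at 1.91. Msr1 came to 1.29, 1.28 and 0.603 of WT. With the mix held fixed, Mertk lay within 0.774 to 0.914 of WT, while Stab1 and Gas6 in 16-week db/db also turned from below to above WT. Timd4 still came to 0.509, 0.115 and 0.0631 of WT and Mfge8 to 1.59, 2.45 and 4.32. A fixed gate need not hold the same cells in each library.

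Some LAMs were cycling, gated on at least 2 of 5 cell cycle genes, 66 in 8-week db/db, 380 in 16-week db/db and 91 in HFD, and 0 in WT. They were deeper, with medians of 13475, 11729 and 10768 UMIs against 7467, 6620 and 6362 in the other LAMs. Mertk was lower in cycling than in other LAMs in all 3 obese libraries, with ratios of 0.494, 0.451 and 0.547. Stab1 had ratios of 0.561, 0.711 and 0.698, and Msr1 0.587, 0.790 and 0.828 (0.635 to 1.07). Pros1 had 1.003 (0.705 to 1.40), 0.578 and 0.894 (0.659 to 1.19). Axl was at 0.853 (0.662 to 1.09), 0.445 and 0.585, and Gas6 at 0.882 (0.524 to 1.42), 0.449 and 0.668 (0.407 to 1.05). Mfge8 was at 0.337, 0.895 (0.759 to 1.05) and 0.292 of the level in other LAMs. Counted per cell, Stab1 was at 0.424, 0.747 and 0.659 UMIs in cycling LAMs against 0.420, 0.642 and 0.595 in the others. Msr1 was at 0.909, 0.974 and 0.791 UMIs per cell against 0.861, 0.753 and 0.602. Mertk was at 0.364, 0.2 and 0.407 against 0.409, 0.271 and 0.468. The part of depth in the ratios was not tested.

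The higher Mfge8 level of obese macrophages was concentrated in few cells. Cells with at least 5 Mfge8 UMIs, a limit set after the values were seen, numbered 0 of 979 in WT, 20 of 2670 in 8-week db/db (0.749%), 25 of 2104 in 16-week db/db (1.19%) and 37 of 1255 in HFD (2.95%). They held 53.0%, 40.8% and 72.9% of the macrophage Mfge8 UMIs in the 3 obese libraries, and the richest cell held 2, 41, 75 and 135 UMIs in WT, 8-week db/db, 16-week db/db and HFD. Just inside the limit, at 5 or 6 UMIs, lay 6, 9 and 10 cells of the obese libraries, and just outside, at 3 or 4 UMIs, 19, 22 and 18. As so few cells carry the signal, the Poisson intervals of Mfge8 are too narrow. Without these cells the macrophage level was 11.1 CPM in WT, 19.3 CPM (17.2 to 21.6) in 8-week db/db, 27.4 CPM (24.8 to 30.1) in 16-week db/db and 34.9 CPM (30.9 to 39.2) in HFD, or 1.74, 2.46 and 3.14 times the WT level. The share of macrophages with any Mfge8 UMI was 6.44%, 9.89%, 16.8% and 18.8% as measured and 1.45%, 2.23%, 3.44% and 5.26% after thinning, against 1 of 22, 1 of 86, 0 of 28 and 0 of 17 thinned lymphoid cells.

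Of the Mfge8-rich cells, 16 of 20, 24 of 25 and 35 of 37 were LAM-gated without the PVM gate and 0 were PVM-gated alone. They were deep cells, with medians of 13371, 11470 and 14276 UMIs against 7859, 7738 and 6509 in the other LAMs. Genes with at least 50 CPM in the Mfge8-rich LAMs of each obese library were considered, 1759 in number. This limit favours genes high in those cells, and lower genes were not counted. Past 2-fold higher than in the other LAMs in all 3 obese libraries were 10 of them. With cells of at least 10000 UMIs alone 6 genes were, of which 5 were shared. Those 5 were Cd200, Ctsk, Itgax, Gpnmb and Wfs1. The other 5 of the 10 were Ctsl, Ckb, Acp5, S100a1 and Anxa1. Ctsk, the gene of cathepsin K, a protease of osteoclasts and some macrophages, was at 2380 CPM against 502 CPM in 8-week db/db, 5039 against 896 CPM in 16-week db/db and 1287 against 272 CPM in HFD. Cd200, an immune-regulatory surface protein, was at 174 against 12.1 CPM, 173 against 11.1 CPM and 109.5 against 15.8 CPM, and Itgax, the integrin CD11c, at 406 against 89.0 CPM, 279 against 52.1 CPM and 669 against 159.9 CPM. Gpnmb is itself a LAM gate gene. Axl was at 24.1 against 96.0 CPM, 9.09 against 27.8 CPM and 61.7 against 144 CPM, from 5, 3 and 31 UMIs in the Mfge8-rich cells, and its log2 ratio (10 CPM added) went from -1.63, -0.99 and -1.10 to -1.76, -0.34 and -0.48 with cells of at least 10000 UMIs alone. The Mfge8-rich cells were picked on their own values and compared in the same cells, so these are descriptions.

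**Figure D3:**
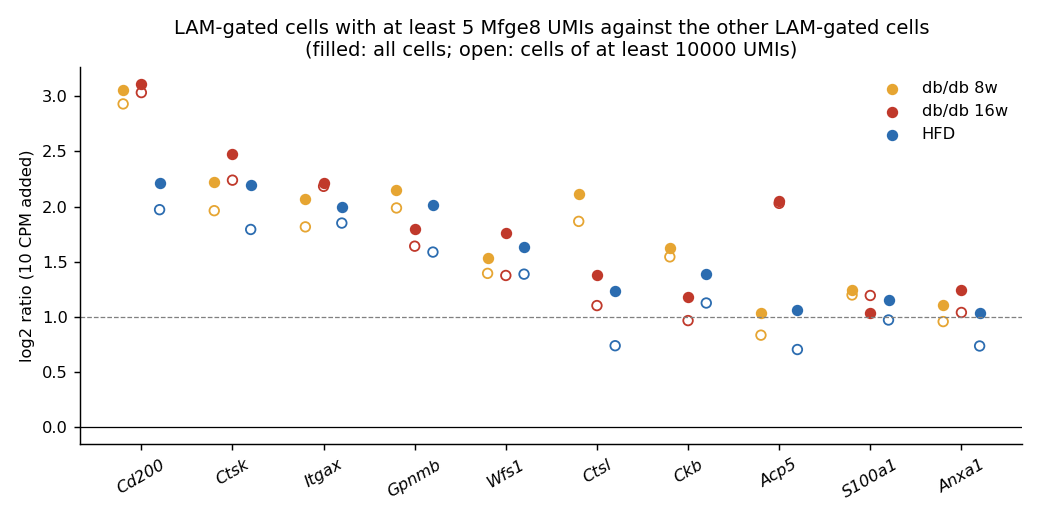
Log2 ratio (10 CPM added) of LAM-gated cells with at least 5 Mfge8 UMIs to the other LAM-gated cells of each obese library, for the 10 genes past 2-fold in all 3, with filled points for all cells, open points for cells of at least 10000 UMIs and a dashed line at 2-fold. For Cd200, Ctsk, Itgax, Gpnmb and Wfs1 every filled and open point lies above the line.

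Outside macrophages, the members fell into genes largely held by macrophages and genes shared with stromal cells. In WT, PVMs held 58.6% of the Mertk UMIs of the library, 68.0% of Timd4, 59.1% of Stab1 and 58.4% of Msr1, while stromal cells held 86.7% of Axl, 86.9% of Mfge8 and 70.3% of Pros1. Gas6 was split, with 41.3% in PVMs and 33.1% in stromal cells. In 16-week db/db, LAMs held 37.5% of Mertk, 33.0% of Stab1 and 58.5% of Msr1, and in HFD 23.7%, 24.1% and 44.6%. Cells outside every gate, or with markers of several lineages, held between 11.3% and 30.7% of a member's UMIs in WT and between 40.1% and 76.5% in HFD, so the shares of the libraries are not of equal completeness.

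**Figure D4:**
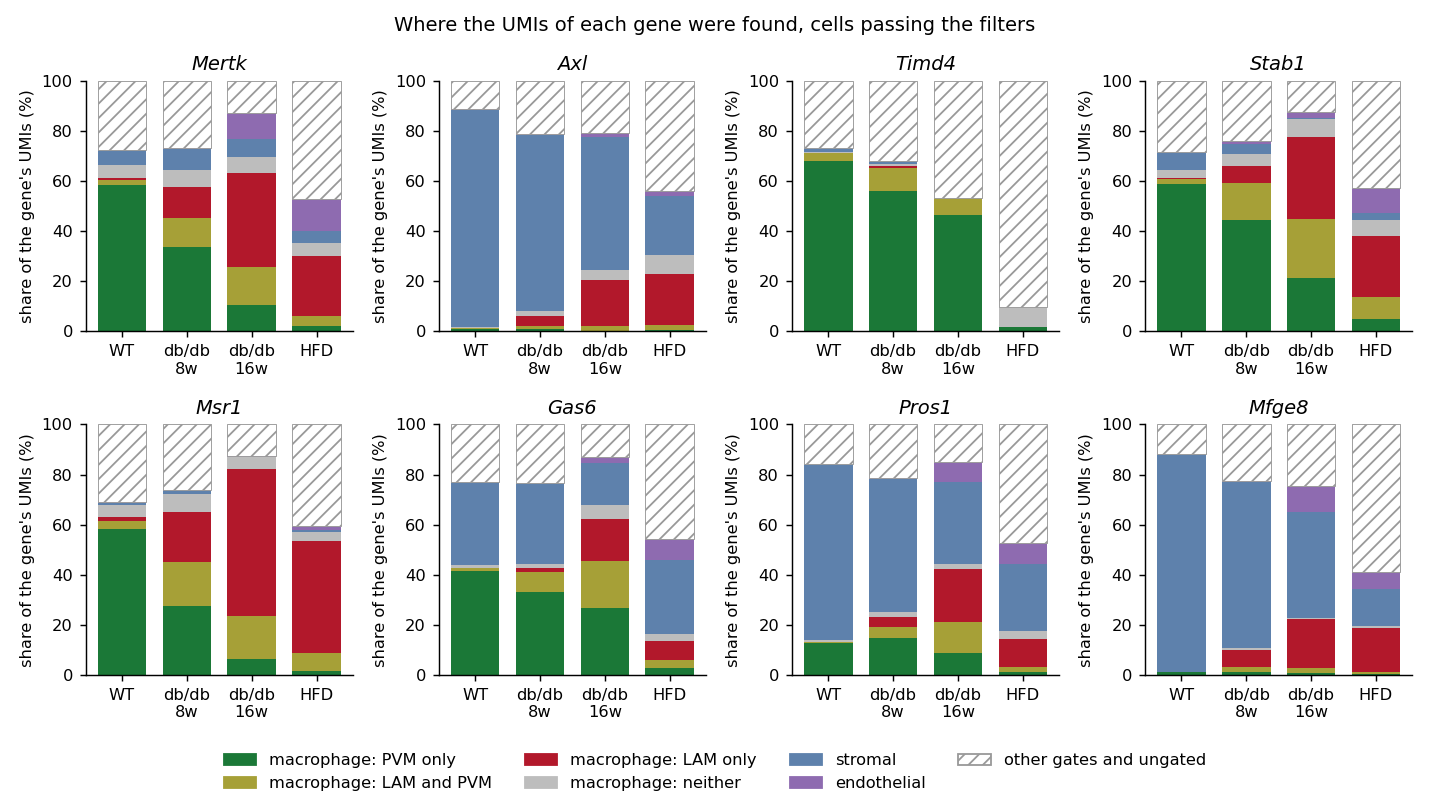
Share of each member's UMIs held by each gated cell class in each library, in percent. In WT, PVMs hold most Timd4, Stab1, Mertk and Msr1 and stromal cells most Axl, Mfge8 and Pros1, and in 16-week db/db LAMs hold 58.5% of Msr1. Hatched parts are other gates and cells outside every gate.

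Stromal cells, gated on 3 of 6 markers (Pdgfra, Pdgfrb, Dpt, Lum, Fbn1 and Pcolce), numbered 3716, 4459, 985 and 927. In them 0 members were higher and 0 lower past 2-fold in 8-week db/db, of 4 tested, where 2.08% and 1.21% of genes were. In 16-week db/db 2 of 5 were higher (background 7.36%), Mertk and Mfge8, and 1 was lower (8.08%), Axl. In HFD 1 of 6 was higher (5.41%), Mertk, and 1 lower (4.26%), Axl. The members' median log2 ratio was 0.29, 0.55 and 0.49, beside 0.02, -0.01 and 0.04 over all genes.

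Axl in stromal cells was at 518, 412, 243 and 202 CPM in WT, 8-week db/db, 16-week db/db and HFD, or 0.795, 0.469 (0.438 to 0.502) and 0.389 (0.364 to 0.415) of WT. In HFD Axl was thus lower than in WT in stromal cells and higher in macrophages. Mfge8 was at 166, 183, 367 and 167 CPM, or 1.10 (1.06 to 1.15), 2.21 (2.08 to 2.34) and 1.003 (0.929 to 1.08) of WT. Gas6 was at 73.9, 111, 113 and 145 CPM and Pros1 at 108, 151, 132 and 179 CPM. Both were lowest in WT, whereas in macrophages Gas6 was highest in WT. The stromal ratios of Gas6 were 1.501, 1.53 and 1.96 (1.80 to 2.14), short of 2-fold.

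Mertk in stromal cells was at 2.11 CPM in WT, 6.68 CPM in 8-week db/db, 15.8 CPM in 16-week db/db and 16.2 CPM in HFD, with ratios of 7.46 (5.14 to 10.8) in 16-week db/db and 7.66 (5.43 to 10.8) in HFD. These levels were lower than in macrophages in every library. Lyz2, which marks macrophage RNA, was at 29.9, 92.4, 25.8 and 160.5 CPM in the same stromal cells, so it moved with Mertk in HFD but was below WT in 16-week db/db, and its part in the result was not tested. Endothelial cells, with enough cells in 16-week db/db (1063) and HFD (783), held Mertk at 61.0 and 55.1 CPM, Mfge8 at 224 and 106 CPM and Stab1 at 42.9 and 56.0 CPM. In 16-week db/db the Mertk level of endothelial cells was above that of macrophages (35.9 CPM). Mural cells, the pericytes and smooth muscle of vessels, held Mfge8 at 1929 CPM (1162 to 3013) in 16-week db/db and 1895 CPM (1249 to 2757) in HFD, the highest levels of Mfge8 in any class, from only 12 and 6 cells.

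**Figure D5:**
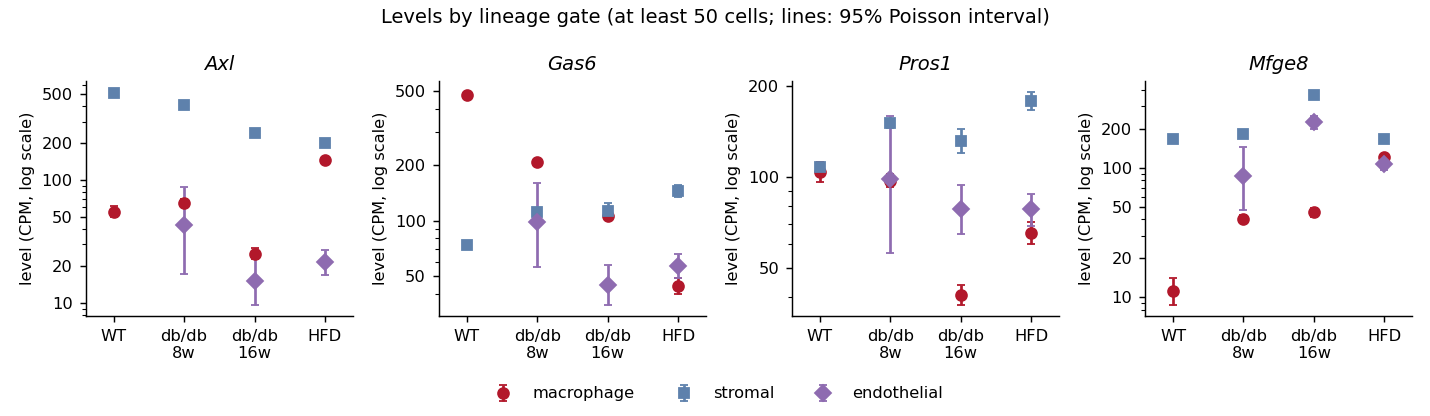
Level of Axl, Gas6, Pros1 and Mfge8 in macrophage-gated, stromal-gated and endothelial-gated cells of each library with at least 50 such cells, in CPM on a log axis with exact 95% Poisson intervals. Axl and Mfge8 are higher in stromal cells than in macrophages in every library (518 against 55.4 CPM for Axl in WT), and Gas6 is higher in macrophages in WT (480.4 against 73.9 CPM) and in stromal cells in HFD (145 against 44.3 CPM).

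The wider pathway was described by 5 lists with 47 genes, of which the 43 that were not gate genes were counted in macrophages. In 8-week db/db 6 of 32 tested genes were higher past 2-fold and 2 lower, in 16-week db/db 4 of 31 and 5, and in HFD 6 of 30 and 6. Over all genes tested 2.70% were higher and 2.44% lower in 8-week db/db, 13.8% and 16.0% in 16-week db/db, and 6.79% and 6.87% in HFD, so the 16-week db/db counts were near the background and the counts of the single lists, of 4 to 9 tested genes each, are small numbers to read against it. Among other receptors that bind phosphatidylserine directly or through bridging proteins, 3 of 5, 2 of 5 and 4 of 4 tested genes were higher and 0 lower. The 3 in 8-week db/db, named after their values were seen, were Lrp1 and the integrin subunits Itgav and Itgb5, none of which is a direct phosphatidylserine receptor. Those in 16-week db/db, named likewise, were Lrp1 and Havcr2, the latter at 1.90 CPM in WT and 15.2 CPM in 16-week db/db. In HFD Cd300lb was higher beside Lrp1, Itgav and Itgb5. Lrp1, a large endocytic receptor, was higher in all 3 libraries, at 90.3 CPM in WT and 241, 405 and 426 CPM in the obese libraries. Among 6 tested bridging and opsonin genes 1, 1 and 1 were higher and 1, 2 and 3 lower. Anxa1, a phosphatidylserine-binding annexin, was higher in all 3 (90.9 CPM in WT, then 406, 775 and 925 CPM), and the complement gene C3 lower in all 3 (149, then 31.3, 2.41 and 23.7 CPM). Among other scavenger receptors 2 of 7, 1 of 6 and 1 of 6 tested genes were higher and 1, 2 and 2 lower. Cd36, which takes up fatty acids and oxidized lipoproteins, was higher in all 3 (762, then 1734, 2241 and 2921 CPM), and Scara5, a ferritin receptor, lower in all 3 (20.2, then 4.11, 0.0619 and 1.52 CPM). C3 and Scara5 are also known from stromal cells, and Dcn in the same macrophage-gated cells was lower in step, at 259, 92.1, 3.03 and 81.5 CPM. The part of such RNA in both results was not tested. Of the 9 tested genes of the engulfment machinery, 0 were past 2-fold in either direction in any library. The list of restraint and shedding genes had 5 tested, of which 0 were higher and 0, 1 and 1 were lower. The lower gene was Socs3 in both 16-week db/db and HFD, at 323 CPM in WT, then 35.6 and 28.6 CPM. Cd47 and Sirpa of the same list stayed within 2-fold in all 3 libraries.

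The genes whose levels ran most like a member's were found by Pearson's r of log2(CPM + 10) over 22 sums, each of 1 macrophage subset or lineage in 1 library with at least 50 cells. These sums share libraries, depth and lineages, so r is a description. Mertk was nearest to Sh3tc1 (0.933), Stard8 (0.930) and Sdc3 (0.908), and Stab1 to Stard8 (0.971), Lyl1 (0.920) and Mtss1 (0.902). Timd4 was nearest to the lectin genes Cd209g (0.926), Cd209d (0.905) and Cd209f (0.902), paralogs whose reads can be hard to tell apart. Msr1 was nearest to Ms4a6d (0.986), Tmem37 (0.973) and Kcnk13 (0.964), and Axl to Fam129a (0.901), Agpat4 (0.894) and Plxdc2 (0.892). Of the bridging genes, Gas6 was nearest to Tcn2 (0.923), Fcgrt (0.912) and Ltc4s (0.838), Pros1 to Sept8 (0.859), Slc35f5 (0.858) and Cd81 (0.849), and Mfge8 to Dag1 (0.892), Tax1bp3 (0.885) and Gask1b (0.875). Between members, r was highest for Mertk and Stab1 (0.875) and lowest for Axl and Stab1 (-0.581).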

How the data were processed

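The authors deposited raw counts of UMIs by gene and cell barcode, made from 10x Genomics 3′ libraries with Cell Ranger 7.1.0 on mm10 according to the submitters' processing notes, while the file header names 6.0.0. Each of the 4 matrices held called barcodes before quality filters. The limits of the study were applied: more than 250 but fewer than 6000 genes, more than 500 but fewer than 30000 UMIs, and a mitochondrial share below 15%. Of 8 lineages, each needed 3 of its 6 markers (2 of 6 for lymphoid cells) with a UMI. No doublet caller was run, and cells with more than 1 marker of another lineage were left out (364, 884, 179 and 800 cells of macrophage type in WT, 8-week db/db, 16-week db/db and HFD). Monocyte and dendritic markers were not counted against macrophages, and monocytes and dendritic cells could hold up to 2 macrophage markers.

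UMIs were summed over the cells of a class and divided by all their UMIs (CPM), in Python 3.11.15 with numpy 2.4.6, scipy 1.17.1 and pandas 2.3.3. Levels carry exact Poisson intervals and ratios exact conditional binomial intervals, at 95%. These UMIs come from 1 library per group, so no replicate spread exists and no p-value was computed. Calls used a log2 ratio past 2-fold with 10 CPM added, over genes with at least 10 CPM in either group. The scripts were tested on simulated data. The 8 members, the pathway lists and the gates were chosen with earlier results of these data known. All members were named, as were pathway genes past 2-fold in 1 direction in all 3 comparisons with WT and the 3 genes nearest to each member. The promoter motifs, the limit of 5 Mfge8 UMIs and the weighting to the WT mix were chosen after the data were seen. Gene spans came from GENCODE and promoter sequences from RefSeq, where 7 of the 8 members had an entry.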

Additional observations from a re-analysis of the deposited data

Results flagged for a closer look

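Several members differed from WT in opposite directions between obese libraries, with counting intervals on either side of no change. With 1 library per group, none of these differences between libraries was tested. In macrophages the log2 ratio of Axl to WT was 0.25 in 8-week db/db and 1.39 in HFD but -1.13 in 16-week db/db, and that of Msr1 was 0.30 in 8-week db/db and -0.32 in HFD. In PVMs Axl was at -0.79 in 8-week db/db, -4.28 in 16-week db/db (2 UMIs) and 1.01 in HFD, and Msr1 was at 0.32 in 8-week db/db and -0.82 in HFD. Stab1 in PVMs was at -0.48 in 8-week db/db and 0.59 in 16-week db/db, and Gas6 was at -0.33 in 8-week db/db, 0.35 in 16-week db/db and -1.35 in HFD. The PVMs of HFD numbered 62.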

How the results depend on the processing

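The counts of members past 2-fold were recomputed under 8 alternatives, and those not named here stayed within 1.5 times. With no limit on markers of other lineages, 0 members were higher in macrophages of 8-week db/db, 0 in 16-week db/db and 1 in HFD, and with no marker of another lineage allowed 0 were higher in 8-week db/db, and 4 were lower in LAMs than in PVMs in the 3 obese libraries. With cells thinned to 1000 UMIs before gating, 1 member was lower in macrophages of 8-week db/db and 1 in 16-week db/db, and in stromal cells 0 were lower in 16-week db/db and 0 higher in HFD. With equal weight per cell, 3 members were lower in macrophages of 16-week db/db, and in stromal cells 0 were lower in 16-week db/db and 2 higher in HFD. With 1 CPM added, 4 members were lower in LAMs than in PVMs in all 4 libraries, as Timd4 and Pros1 joined, and 4 in the 3 obese libraries. The causes were not tested, but thinning left 805, 1771, 973 and 1051 macrophages, and fewer markers are seen in a thinned cell. Changes in single members were set against the distance from the middle to an end of the counting interval of the log2 ratio without added CPM. Of 312 values under these alternatives, 224 moved by no more than that distance and 88 by more. Of all 312, 6 changed sign, none of them among the 20 values past 2-fold. The comparison of LAMs with PVMs without the 16-week db/db library, added after the data were seen, gave 0 higher and 2 lower, the same as in all 4. No paired analysis was possible because each group has 1 library, and for the same reason none could be left out in turn. In PVMs of HFD and LAMs of WT depth limits every value, as 62 and 14 cells were gated.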
